A study of Mus musculus with 4 samples.

Results

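Interferon-high neutrophils of the mouse prostate were the cells that passed a neutrophil gate and also carried interferon-induced transcripts. Cells were kept with 500 or more UMIs (unique molecular identifiers, each counting 1 captured RNA molecule) from 200 or more genes, and with no more than 20% of UMIs from mitochondrial genes. It passed the neutrophil gate when S100a8, S100a9, Csf3r and Cxcr2 together reached 20 per 10000 of its UMIs, at least 1 UMI came from Csf3r or Cxcr2, and the macrophage genes C1qa, C1qb and C1qc together stayed below 5 per 10000. It was called interferon-high when Rsad2, Ifit1, Ifit3 and Isg15 together reached 5 per 10000. These measured values chose the cells, so the 11 genes were not tested, and the levels given for some of them are a description. In all, 1065 cells met the rule, which is 38.6% of 2762 neutrophils and 3.42% of 31165 kept cells.

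The cells came from dissociated prostates of 4 groups of mice, profiled by droplet single-cell RNA sequencing (10x Chromium, which reads transcript 3′ ends). The group called Trp53-intact was 4 months old, and the Trp53-intact ADT group was 5.5 months old. Mice of the Trp53-deleted group (Trp53PC-/-, read here as a prostate-restricted deletion, whose driver the labels do not name) were 3.5 months old, and those of the Trp53-deleted ADT group 5.5 months old. ADT is not spelled out in the labels and is read here as androgen deprivation therapy, with no dose or duration given. All 4 groups share a further genotype that is not reported here, so none is a wild-type control. Each group is 1 library, and the labels do not say how many mice were pooled in it. The effects of ADT, age and library therefore cannot be told apart, and the same holds for the genotype, so no test between groups was possible.

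Neutrophils are short-lived granulocytes that enter inflamed and tumour tissue, and they carry receptors for type I interferons (the interferon alpha family and interferon beta) and for interferon gamma. Type I interferons signal through Ifnar1 and Ifnar2 to the kinases Jak1 and Tyk2, and a complex that includes Stat2 and Irf9 then binds interferon-stimulated response elements in the promoters of antiviral genes. Rsad2 encodes viperin, which makes an antiviral nucleotide, Ifit1 and Ifit3 encode RNA-binding antiviral proteins, and Isg15 encodes a ubiquitin-like modifier. Cd274 encodes PD-L1, the ligand of the T cell checkpoint receptor PD-1.

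The promoters of the 4 interferon genes of the rule and of Cd274 are shown because the cells are defined by the former and the latter is the fifth marker. Each sequence is the 250 bases before the transcription start, 5′ to 3′ on the strand of the gene, from RefSeq on GRCm38.p6, and all 5 genes were matched by symbol. Capitals mark each match to GAAANNGAAA or, for the other strand, TTTCNNTTTC, the core letters of an interferon-stimulated response element, with overlapping matches joined. The windows are chr12:26456453-26456702 on the minus strand for Rsad2, chr19:34640639-34640888 on the plus strand for Ifit1, chr19:34583279-34583528 on the plus strand for Ifit3, chr4:156200819-156201068 on the minus strand for Isg15 and chr19:29367188-29367437 on the plus strand for Cd274.
Rsad2: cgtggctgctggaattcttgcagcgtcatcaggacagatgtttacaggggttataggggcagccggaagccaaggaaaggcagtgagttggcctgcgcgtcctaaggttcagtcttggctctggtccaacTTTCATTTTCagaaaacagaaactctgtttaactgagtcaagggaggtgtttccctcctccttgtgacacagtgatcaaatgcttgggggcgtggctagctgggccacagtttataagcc
Ifit1: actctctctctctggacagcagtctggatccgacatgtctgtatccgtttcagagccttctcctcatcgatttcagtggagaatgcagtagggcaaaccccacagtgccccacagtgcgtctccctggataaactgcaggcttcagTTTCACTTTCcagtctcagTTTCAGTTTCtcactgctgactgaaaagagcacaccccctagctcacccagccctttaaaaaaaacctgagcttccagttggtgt
Ifit3: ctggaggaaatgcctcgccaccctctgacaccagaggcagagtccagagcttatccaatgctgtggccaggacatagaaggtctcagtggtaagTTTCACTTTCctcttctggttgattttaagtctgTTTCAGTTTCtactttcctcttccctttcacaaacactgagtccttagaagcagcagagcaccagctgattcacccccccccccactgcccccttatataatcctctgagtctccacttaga
Isg15: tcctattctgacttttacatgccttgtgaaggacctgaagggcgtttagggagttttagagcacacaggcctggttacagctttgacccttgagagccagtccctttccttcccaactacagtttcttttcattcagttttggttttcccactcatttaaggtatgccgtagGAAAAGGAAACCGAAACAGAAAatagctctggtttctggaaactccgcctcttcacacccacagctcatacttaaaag
Cd274: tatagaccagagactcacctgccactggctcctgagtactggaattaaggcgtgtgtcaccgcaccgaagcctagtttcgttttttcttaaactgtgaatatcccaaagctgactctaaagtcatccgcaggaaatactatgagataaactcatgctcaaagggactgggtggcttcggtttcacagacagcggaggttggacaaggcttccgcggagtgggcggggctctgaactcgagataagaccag
Rsad2 held 1 match, beginning 120 bases before the start. Ifit1 held 2 matches (104 and 85 bases before), Ifit3 held 2 (156 and 122 bases before) and Isg15 held 3 overlapping matches (78, 72 and 66 bases before). The Cd274 window held 0 matches to these letters. Over 27025 gene symbols with such a window, 3.46% held a match. A match is a description of letters and not evidence of binding.

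The gate was checked against 12 neutrophil genes outside the rule, such as Retnlg, Il1r2, Hdc, G0s2 and Cxcl2. Summed over interferon-high neutrophils, they reached 53215, 41045, 39542 and 45991 CPM (UMIs of a gene per 1000000 UMIs) in the Trp53-intact library, with ADT in that genotype, in the Trp53-deleted library and with ADT there, an order used throughout. Over all kept cells the same sums were 3680, 4804, 2856 and 1710 CPM, so the neutrophil label held in each library. Ly6g, the surface antigen often used to sort mouse neutrophils, was low, at 11.7, 4.64, 12.96 and 3.56 CPM. Most marker sums of other cell types were alike in the median cell of both groups. The median macrophage sum per cell was 4.96 to 12.3 per 10000 UMIs in interferon-high and 5.44 to 12.7 in other neutrophils, and the median T and NK sum was 0 in both in all 4 libraries. Some sums differed through few cells, since erythroid markers reached 15747 CPM in other neutrophils of the Trp53-deleted ADT library with a median of 0 per cell. Monocyte markers were an exception, at 732, 616, 594 and 1262 CPM in interferon-high and 295, 221, 356 and 540.2 CPM in other neutrophils. Of that list, Ly6c2 (log2 fold change 2.81, SE 0.34, adjusted p = 0.00159) and Plac8 (1.94, SE 0.14, adjusted p = 1e-07, edgeR) rose in interferon-high neutrophils, whereas Ccr2 did not pass the test (-0.04, SE 0.27). The part of monocytes in any result was not tested.

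Depth was alike on both sides of the rule. Interferon-high neutrophils had a median of 3295, 3706, 2888 and 2657 UMIs per cell in library order, and other neutrophils had 3302, 3557, 2704 and 2608. Among kept barcodes, 112 occurred in more than 1 library, 5 of them interferon-high neutrophils. Cells with the highest doublet scores made up 5.02%, 4.65%, 2.91% and 2.04% of interferon-high neutrophils and 6.93%, 7.64%, 4.78% and 8.07% of the others.

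The interferon sum that defines these cells was a range and not a separate peak. Of the 1065 cells, 226 lay just inside the threshold, between 5 and 10 per 10000 UMIs, and 324 other neutrophils lay just outside, between 2.5 and 5. The median sum was 30.9, 31.1, 56.1 and 48.4 per 10000 in library order, and the highest single cell reached 1038. At 100 per 10000 or more stood 62 of 219 cells in the Trp53-intact library, 131 of 473 in Trp53-intact ADT, 103 of 275 in Trp53-deleted and 33 of 98 in Trp53-deleted ADT. In total, 71.5% of the cells held 5 or more UMIs of the 4 genes and 36.0% held all 4 genes, while 26 cells rested on 1 UMI. Most other neutrophils, 75.4%, held no UMI of the 4 genes.

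**Figure D1:**
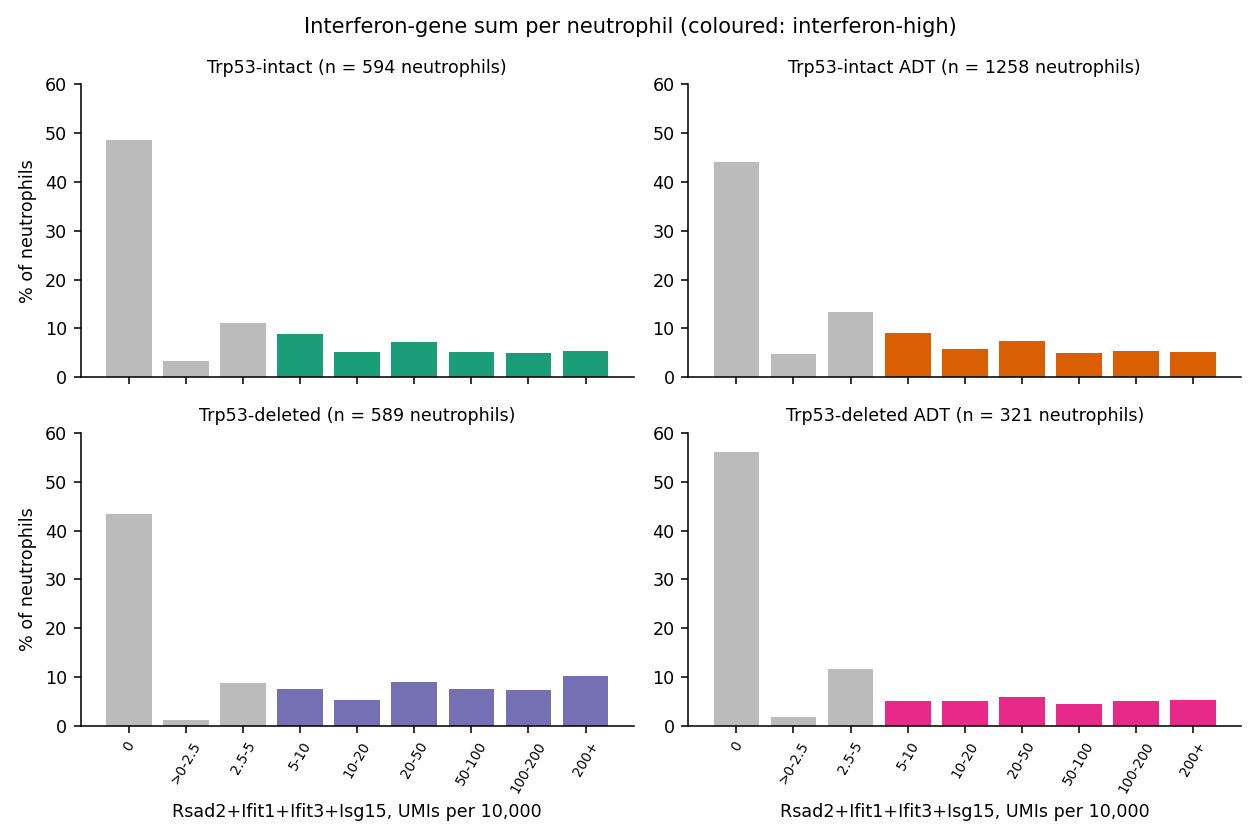
Share of neutrophils (y axis, percent) by the summed Rsad2, Ifit1, Ifit3 and Isg15 UMIs per 10000 UMIs of the cell (x axis, bins of unequal width), 1 panel per library, with interferon-high cells coloured and others grey. The sum spreads from the threshold of 5 to 200 and above without a gap in each library, and the bin at 0 is the tallest.

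Rsad2 averaged 6139, 4815, 7127 and 5024 CPM in interferon-high neutrophils in library order and 26.5, 26.1, 24.1 and 24.04 CPM in the others. Ifit1 stood at 1319.5, 1454, 2287 and 2201 CPM, Ifit3 at 766, 976, 822 and 1145 CPM, and Isg15 at 1149, 1282, 1303 and 1031 CPM. The rule fixes these gaps. In classes that were not chosen on it, Rsad2 reached up to 367 CPM in the macrophage gate (C1q sum of at least 20 per 10000), 134 CPM in the epithelial gate and 57.1 CPM in the T gate. Interferon-high neutrophils gave 0.923%, 3.18%, 1.64% and 0.195% of all UMIs of the kept cells of their library, and 24.03%, 57.8%, 46.7% and 16.3% of its Rsad2 UMIs, a share that the rule sets. They held 19.8%, 34.4%, 33.1% and 9.85% of the Cd274 UMIs. For Slfn4, a Schlafen family gene of myeloid cells that the rule did not use, the shares were 49.5%, 65.4%, 50.4% and 29.1%. For Cd274 and Slfn4, which the rule did not use, the share was above the share of all UMIs in each library.

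The share of neutrophils that were interferon-high was 36.9% (219 of 594; 95% exact Clopper-Pearson interval 33.0 to 40.9) in the Trp53-intact library and 37.6% (473 of 1258; 34.9 to 40.3) in Trp53-intact ADT. It was 46.7% (275 of 589; 42.6 to 50.8) in Trp53-deleted and 30.5% (98 of 321; 25.5 to 35.9) in Trp53-deleted ADT. These intervals, like all others here, cover counting error only and not the spread between mice. The share was therefore highest in the Trp53-deleted library and lowest in the Trp53-deleted ADT library. Between the Trp53-deleted libraries the difference with ADT was -16.2 percentage points (Newcombe interval -22.4 to -9.57), and between the Trp53-intact libraries it was 0.73 points (-4.02 to 5.39). Without ADT, the Trp53-deleted library exceeded the Trp53-intact library by 9.82 points (4.201 to 15.4). With ADT, it lay 7.07 points lower (difference -7.07, -12.6 to -1.20), an interval that reached past 0 at a threshold of 20 per 10000 (difference -2.17, -6.89 to 3.08).

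The order of the libraries was the same at equal depth. With every neutrophil thinned to 1000 UMIs and 1 or more interferon UMIs required, the shares were 34.6%, 36.9%, 45.6% and 30.8%, after 10, 31, 63 and 9 shallower cells were left out. Other classes passed the threshold of 5 per 10000 too. In the epithelial gate 13.8%, 29.4%, 23.4% and 19.6% of cells passed, at median depths of 4024, 2102, 20735.5 and 4244 UMIs, and in the macrophage gate 17.4%, 14.6%, 15.4% and 14.9%. The epithelial share of 29.4% in the Trp53-intact ADT library was the nearest to its neutrophil share. In the T gate, the lowest class in 3 of 4 libraries, 5.35%, 5.57%, 6.91% and 15.1% passed, at median depths of 4704, 6016, 4027 and 4608 UMIs. At 100 per 10000 or more, the neutrophil shares were 10.4%, 10.4%, 17.5% and 10.3%, whereas the epithelial gate held 0.280%, 0.390%, 1.83% and 0.802% and the T gate 0%, 0%, 0% and 0.27%. A count of 0 among 411, 844 and 434 cells of the T gate limits only cells with such UMIs. Interferon-high neutrophils were 2.71%, 6.10%, 4.83% and 1.02% of kept cells, a share that also moves with the number of neutrophils captured.

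**Figure D2:**
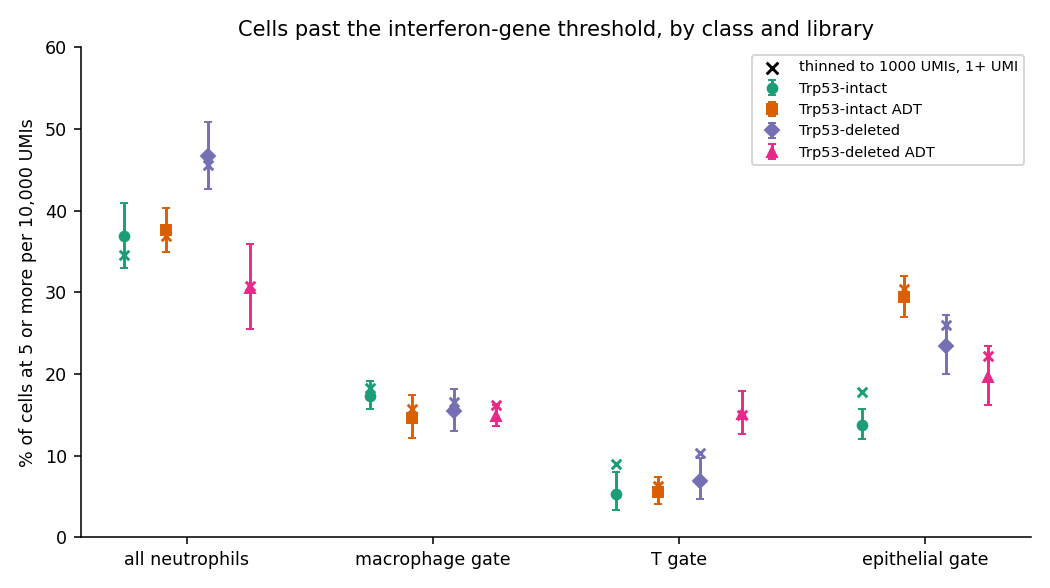
Percent of cells at 5 or more interferon-gene UMIs per 10000 (y axis) in all neutrophils and in the macrophage, T and epithelial gates (x axis), with 1 coloured symbol per library, 95% exact binomial intervals as bars and crosses for cells thinned to 1000 UMIs. Neutrophil shares run from 30.5% to 46.7% and lie above the macrophage gate (14.6% to 17.4%), the T gate (5.35% to 15.1%) and the epithelial gate (13.8% to 29.4%) in each library, with the epithelial gate of Trp53-intact ADT the nearest.

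Interferon-high neutrophils were then compared with the other neutrophils of the same library, across the 4 libraries. Of 6456 genes tested outside the rule, 721 rose (11.2%) and 203 fell (3.14%) at an adjusted p below 0.05 (edgeR quasi-likelihood test with library as block, Benjamini-Hochberg over all genes), and the median log2 fold change was -0.05. Of these, 97 rose at least 4-fold and 0 fell at least 4-fold. The libraries are single samples of different conditions, so these p-values measure the spread of the contrast between 4 libraries. The rule genes stand for an interferon response, and interferon genes outside the rule come from the same cells, so their rise describes how far the response extends and is not independent support for the label. With library totals in place of TMM scaling, 504 genes rose and 1287 fell, so the share of calls that were higher went from 78.0% to 28.1% and the median to -0.31. Small changes below are therefore relative to the TMM scale.

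Antiviral genes were among the largest rises. Of 57 other type I interferon response genes, 55 were in the matrix and 47 passed the filter on low counts. Of those tested, 45 rose and 0 fell, with a median log2 fold change of 3.06. Ifit2, a relative of Ifit1 on the same chromosome, averaged 342, 362, 409.9 and 416 CPM against 1.39, 2.94, 6.28 and 7.07 CPM in the others (log2 fold change 6.89, SE 0.22, adjusted p = 1.89e-11, edgeR). Cmpk2, a mitochondrial nucleotide kinase whose gene neighbours Rsad2, averaged 369, 376, 576 and 423 CPM against 3.48, 7.93, 8.38 and 7.07 CPM (6.19, SE 0.19). In both genes the lowest interferon-high library lay far above the highest library of the others. Usp18, the protease that removes Isg15 and damps interferon receptor signalling, rose by 5.15 (SE 0.19) on the log2 scale. Oasl1, a 2′-5′ oligoadenylate synthetase-like inhibitor of Irf7 translation, rose by 5.13 (SE 0.18), and Herc6, an Isg15 ligase in mice, by 5.04 (SE 0.16). Ifit3b (5.88, SE 0.29), Ifi204 (4.43, SE 0.16) and Ddx60 (4.28, SE 0.18) were also among the 15 largest, as was Ifi206 (4.12, SE 0.37), which is outside the list. Trim30c, also outside it, had 67, 107, 33 and 17 UMIs in interferon-high and 0, 4, 0 and 1 UMIs in other neutrophils, too few for a fold. A gene could pass the filter on low counts through interferon-high neutrophils alone, so counts over tested genes are descriptions. Ifit3b is a near copy of Ifit3, and the Ifi200 and Trim30 genes are families of similar members, so reads may be split uncertainly among them. The members that did not pass were Ms4a4c (0.39, adjusted p = 0.603) and Lgals3bp (0.27, adjusted p = 0.594).

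**Figure D3:**
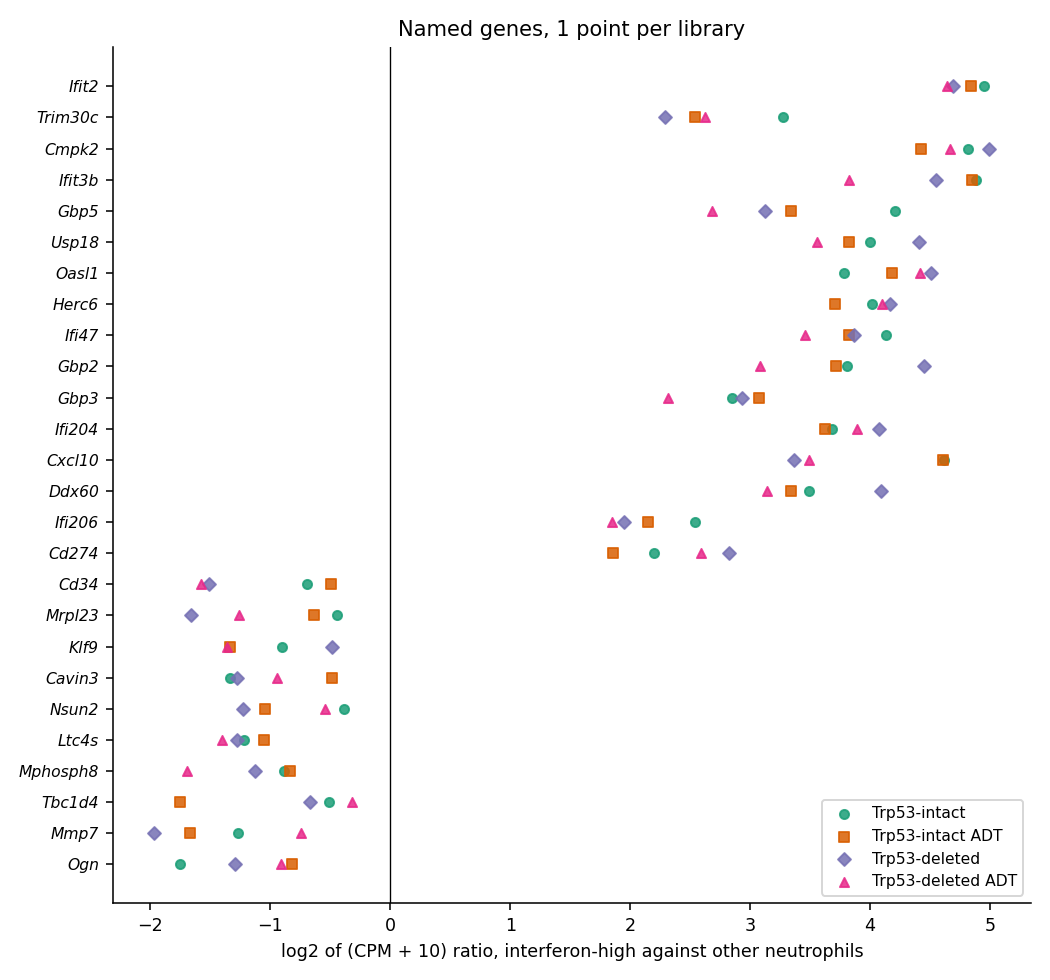
Log2 ratio of CPM plus 10 in interferon-high against other neutrophils (x axis) for the 15 genes with the largest and the 10 with the lowest fold change, and Cd274 (y axis), with 1 symbol per library. All 4 libraries lie above 0 for each of the upper 16 genes and below 0 for each of the lower 10.

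The guanylate-binding proteins and immunity-related GTPases, which attack the vacuoles of intracellular pathogens and respond strongly to interferon gamma, rose as well. Of 25 genes in the interferon gamma leaning list, 16 were tested, 13 rose and 0 fell (median log2 fold change 2.89). Gbp5 averaged 175, 127, 95.4 and 99.6 CPM against 0, 3.52, 2.09 and 7.07 CPM (5.67, SE 0.39, adjusted p = 4.36e-06, edgeR). Ifi47 rose by 4.78 (SE 0.18), Gbp2 by 4.52 (SE 0.23) and Gbp3 by 4.46 (SE 0.27), while Nos2 (1.83, SE 0.62, adjusted p = 0.0995), Aim2 (0.40) and Irf8 (-0.42) did not pass. Cxcl10, a ligand of the chemokine receptor Cxcr3 of activated T cells, averaged 2875, 3102, 2703 and 2155 CPM against 108, 118, 253 and 182 CPM (4.38, SE 0.28, adjusted p = 0.000148, edgeR). It was found in 33.8% to 40.0% of interferon-high neutrophils. In the promoter windows described above, 11 of 16 matched genes of this list and 15 of 43 of the type I list held the GAAANNGAAA letters, beside 27 of 79 matched genes that rose at least 4-fold (34.2%) and 3.88% of 5098 matched genes tested.

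The receptors themselves were close to level. Of 18 tested genes of receptors and signalling, 9 rose and 0 fell (median 0.37). The risers were mainly the transcription factors that interferon itself induces. Irf7, the amplifier of interferon alpha production, averaged 404, 502, 511 and 651 CPM against 36.2, 45.5, 56.6 and 89.1 CPM (log2 fold change 3.52, SE 0.14, adjusted p = 1.27e-10, edgeR). Stat2 (2.85, SE 0.17) and Irf9 (1.77, SE 0.15), which act in the complex that binds response elements, rose, as did the DNA sensor cGAS (Mb21d1, 1.89, SE 0.26). Ifnar1 (0.15, SE 0.15), Ifnar2 (0.39, SE 0.13), Ifngr1 (-0.12, SE 0.13) and Ifngr2 (0.20, SE 0.18) did not pass the test, so a difference in receptor transcripts was not detected at this depth.

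The interferons themselves were nearly absent from these cells. None of 15 ligand genes passed the filter for testing, so edgeR gave no p for any of them. Ifnb1, which encodes interferon beta, gave 1 UMI in interferon-high neutrophils of the Trp53-intact library and 0 in the other 3 libraries, where 3 counts would correspond to 1.55, 3.53 and 10.7 CPM. In the macrophage gate it stood at 26.6 and 55.3 CPM in the Trp53-intact and Trp53-intact ADT libraries and at 2.09 and 0.819 CPM in Trp53-deleted and Trp53-deleted ADT. In the epithelial gate of the Trp53-deleted library it reached 8.54 CPM. Ifng, which encodes interferon gamma, was highest in the T gate at 97.8, 12.02, 42.3 and 74.6 CPM. Of its 46 UMIs in interferon-high neutrophils of the Trp53-intact library, 45 lay in 1 cell.

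Cd274 rose in interferon-high neutrophils of all 4 libraries. It averaged 997, 635, 1152 and 519 CPM against 209.5, 169, 154 and 77.8 CPM in the others (log2 fold change 2.68, SE 0.17, adjusted p = 1.76e-07, edgeR). Both groups were lowest in the Trp53-deleted ADT library, and the values did not overlap. A Cd274 UMI was seen in 58.9%, 49.9%, 58.9% and 35.7% of interferon-high neutrophils and in 28.8%, 24.5%, 19.7% and 14.8% of the others. Levels in the macrophage, T and epithelial gates lay between 3.48 and 51.0 CPM. Of 20 tested checkpoint and suppressor genes, 7 rose and 0 fell (median 0.31). Besides Cd274, they included the galectin Lgals9 (1.72, SE 0.16), the second PD-1 ligand Pdcd1lg2 (1.001, SE 0.21, adjusted p = 0.00409) and the arginase Arg2 (0.67, SE 0.13). Without the Trp53-intact library, 4 of the list rose and Pdcd1lg2 no longer passed. Havcr2 (-0.22) and Nt5e (-0.27) did not pass.

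Chemokines that attract monocytes and lymphocytes rose, and so did the neutrophil attractant Cxcl2. Of 25 chemokines and cytokines tested, 13 rose and 0 fell (median 0.72). Ccl4, an attractant of monocytes and lymphocytes, averaged 7815, 7429, 8997 and 12868 CPM against 3068, 3076, 4129 and 3793 CPM (log2 fold change 1.64, SE 0.10, adjusted p = 1.51e-08, edgeR). Ccl3, a related chemokine, rose by 1.19 (SE 0.09), and Il15, a growth factor of NK and memory T cells, by 1.47 (SE 0.18). Tnf rose by 1.11 (SE 0.11), the interleukin-1 antagonist Il1rn by 1.03 (SE 0.10) and Cxcl2 by 0.72 (SE 0.08), with no test of the differences among these genes. Il1b, an inflammatory cytokine at 12546 to 16791 CPM in interferon-high neutrophils, did not pass (0.24, SE 0.08, adjusted p = 0.0703). Il6 (-0.68, SE 0.70) and Ccl7 (-0.96, SE 0.60) did not pass either.

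MHC class I genes, which present peptides to CD8 T cells, rose together, and class II genes did not pass. Of 18 class I genes tested, 16 rose and 0 fell (median 1.04), and of 6 class II genes 0 passed in either direction in edgeR (median -0.08). The peptide transporter Tap1 averaged 113, 132, 258 and 192 CPM against 18.8, 37.3, 57.6 and 42.4 CPM (2.40, SE 0.15, adjusted p = 2.46e-08, edgeR). The class I light chain B2m averaged 4133, 4108, 4289 and 3211 CPM against 1823, 1766, 1952 and 1424 CPM (1.44, SE 0.09). H2-Q4 rose by 2.01 (SE 0.15), H2-T22 by 1.80 (SE 0.17) and H2-T23 by 1.53 (SE 0.12). The class II genes ran from -0.56 (H2-DMb1, SE 0.32) to -0.03 (H2-Eb1, SE 0.20), and 0 passed at an unadjusted p below 0.05 or in DESeq2.

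Several genes that promote cell death rose. Of 21 survival and death genes tested, a list that also holds anti-apoptotic genes, 12 rose and 0 fell (median 0.66). The largest were Zbp1, a sensor of Z-form nucleic acid that can start necroptosis (4.02, SE 0.19), the apoptosis-associated factor Xaf1 (3.58, SE 0.17), the transcriptional co-repressor Daxx (2.42, SE 0.20) and the inflammatory caspase Casp4 (2.04, SE 0.19), each higher in 4 of 4 libraries. Casp8 rose by 1.96 (SE 0.21) and Casp1 by 1.92 (SE 0.25). The anti-apoptotic Bcl2 family genes of neutrophils were closer to level, with a small rise of Mcl1 (0.34, SE 0.09, adjusted p = 0.0203) and Bcl2a1a (-0.09) and Bcl2a1d (-0.34) not passing.

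**Figure D4:**
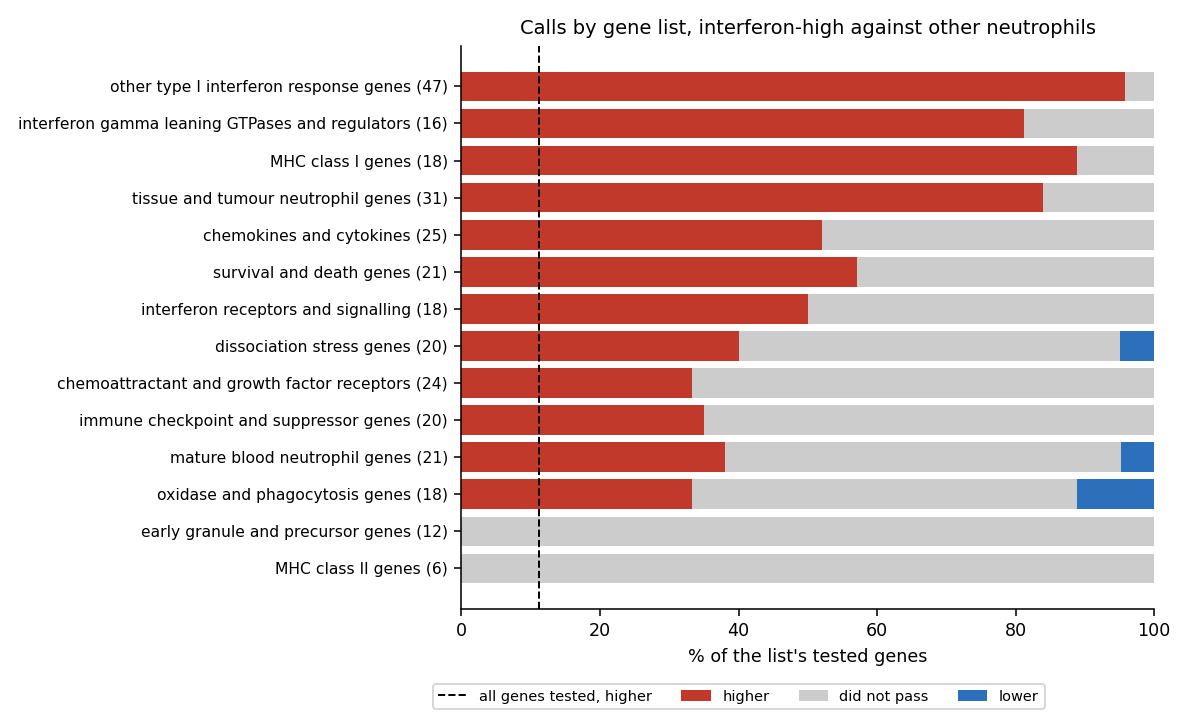
Percent of the tested genes of each list (y axis, number tested in brackets) that were higher, were lower or did not pass in interferon-high against other neutrophils (x axis), with lists ordered by median log2 fold change and the dashed line at 11.2%, the share of all tested genes that rose. The type I, gamma leaning, MHC class I and tissue and tumour lists have over 80% of their tested genes higher, and the early granule and MHC class II lists have 0.

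Genes of early granules did not pass the test, and genes of mature neutrophils moved in part. Of 12 early granule and precursor genes tested, 0 passed in either direction in edgeR (median 0.14), and Elane gave no UMI in either group of any library. At an unadjusted p below 0.05, 2 were higher and 1 was lower, and in DESeq2 0 rose and 0 fell. Of 21 mature blood neutrophil genes, 8 rose and 1 fell (median 0.30). The protease inhibitor Slpi (0.85, SE 0.16) and the cystatin Stfa2l1 (0.78, SE 0.15) rose. Mmp9, the granule gelatinase, fell, at 371, 577, 723 and 562 CPM against 710.0, 771, 1492 and 921 CPM (-0.51, SE 0.12, adjusted p = 0.00711, edgeR). It was lower in 4 of 4 libraries and no longer passed without the Trp53-intact library.

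Of 31 tissue and tumour neutrophil genes, 26 rose and 0 fell (median 0.81). They included the heme oxygenase Hmox1 (1.45, SE 0.24), the lysosomal protease Ctsb (1.21, SE 0.12) and the hypoxia-linked hexokinase Hk2 (1.11, SE 0.13). Hilpda (1.36, SE 0.36, adjusted p = 0.0864), Clec5a (0.02) and Xbp1 (-0.05) did not pass. Without TMM scaling, 20 of the list rose, and without the library term 9. Of 24 chemoattractant and growth factor receptors, 8 rose and 0 fell (median 0.33), led by Tlr2 (0.96, SE 0.12), Tlr4 (0.91, SE 0.17) and Ccrl2 (0.79, SE 0.09), and without the library term 2 rose. Of 18 oxidase and phagocytosis genes, 6 rose and 2 fell (median 0.22). The Fc receptor Fcgr4 (1.31, SE 0.16) and the oxidase subunit Cybb (1.11, SE 0.22) rose. The leukotriene genes Alox5 (-0.56, SE 0.17, adjusted p = 0.0419) and Alox5ap (-0.36, SE 0.11, adjusted p = 0.0422) fell, and both lost the call when any 1 library was left out. Ltc4s, the leukotriene C4 synthase outside the lists, fell by 1.29 (SE 0.20, adjusted p = 0.000377).

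Of 20 dissociation stress genes, 8 rose and 1 fell (median 0.34), so handling genes differed between the groups too. Klf6 rose by 0.89 (SE 0.12), Ier3 by 0.87 (SE 0.12) and Dusp1 by 0.66 (SE 0.09), while the chaperone Hsph1 fell (-0.91, SE 0.26, adjusted p = 0.0273). Their part in the other lists was not tested.

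Lists with small changes depended on the scaling and on the library term. Without TMM scaling, 5 checkpoint genes rose and 3 fell, 8 signalling genes rose and 2 fell, and 9 survival and death genes rose and 2 fell. On that scale 4 oxidase and phagocytosis genes rose and 5 fell, 7 stress genes rose and 5 fell, and 6 mature blood genes rose and 2 fell. The type I, gamma leaning and MHC class I lists had 45, 13 and 15 higher genes and 0 lower there. Without the library term, 2 checkpoint genes, 7 chemokines and cytokines, 7 survival and death genes, 3 stress genes, 2 mature blood genes and 2 oxidase genes rose.

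The 10 lowest named genes included transcripts of other prostate cells. Ogn, a proteoglycan of connective tissue (-1.57, SE 0.26), averaged 14.3, 8.76, 14.1 and 3.56 CPM against 71.7, 23.2, 49.2 and 15.6 CPM, and Mmp7, a metalloproteinase of glandular epithelium (-1.53, SE 0.17), 255, 18.0, 36.5 and 3.56 CPM against 626, 79.3, 172 and 12.7 CPM. Cavin3, a coat protein of caveolae (-1.17, SE 0.28), and Cd34, a marker of stem and vascular cells (-1.10, SE 0.29), were also among them, with Tbc1d4, Mphosph8, Nsun2, Klf9 and Mrpl23. The fibroblast marker sum was 426, 766, 2159 and 1500.5 CPM in interferon-high and 1089, 1440.3, 2238 and 1167 CPM in other neutrophils, and the epithelial sum 900.0, 478, 331 and 203 CPM against 1050.4, 540.4, 750.0 and 759 CPM. Their part in these calls was not tested. Within cells of 1000 to 5000 UMIs, Mmp7 turned to 0.19.

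Levels were also described along the sum of the 4 rule genes, with classes cut on that sum and no test between gene groups. The summed level of the other type I genes was higher at each step of the classes given next, in each library. In the Trp53-intact library this sum was 2884 CPM in neutrophils with no interferon UMI. It was 6683 CPM in interferon-high cells at 5 to 20 per 10000, 15490 CPM at 20 to 100 and 35779 CPM at 100 or more. Just outside the threshold the same sum was 3464, 4805, 4609 and 7293 CPM in library order, and just inside it was 5741, 6456, 6289 and 6375 CPM. At the threshold itself the sum was thus lower inside than outside in Trp53-deleted ADT, and higher inside in the other libraries. The gamma leaning sum, of which Cxcl10 is a large part, was 635 CPM at 5 to 20, 1607 CPM at 20 to 100 and 14611 CPM at 100 or more in the Trp53-intact library. At 100 or more it was 15289, 10560 and 10457 CPM in the other 3 libraries. Cxcl10 was 152, 413 and 9459 CPM in the Trp53-intact library. In Trp53-intact ADT, Cxcl10 was 195, 1004 and 10033 CPM, in Trp53-deleted 829.8, 1479.5 and 5407 CPM, and in Trp53-deleted ADT 295, 449 and 6043 CPM. Cells at 100 or more per 10000 therefore held the highest level of Cxcl10 in each library.

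Cd274 also climbed along this range, mostly above the 5 to 20 class. It was 217, 186, 177 and 96.2 CPM in neutrophils with no interferon UMI and 293, 259, 279.7 and 116 CPM at 5 to 20. The counting intervals of these classes overlapped in the Trp53-intact and Trp53-deleted ADT libraries. Cd274 was 655, 410, 813 and 377 CPM at 20 to 100 and 2337, 1476, 2153 and 1109 CPM in the top class. S100a8, an alarmin that the rule used, was 21678, 24233, 13883 and 15361 CPM at 5 to 20 and 11420, 13934, 8823 and 8329 CPM in the top class. Mmp9 was 582, 808.0, 1315 and 485 CPM at 5 to 20 and 129, 296, 307 and 599.8 CPM in the top class, so it was lower there in 3 of 4 libraries and not in Trp53-deleted ADT. Pooled over cells, the summed neutrophil genes outside the rule were higher in interferon-high than in other neutrophils. The sums were 53215 against 48345, 41045 against 33233, 39542 against 32543 and 45991 against 34490 CPM. The median sum per cell, in the units of the rule, was lower in the Trp53-intact library, at 443.8 against 466.9. It was higher in the others, at 408.9 against 336.0, 393.2 against 297.2 and 451.1 against 371.0. The sum includes Cxcl2, which rose in the comparison above. These are levels of 1 library each, over pooled cells except for the medians, with no test. All classes were chosen by the rule genes.

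**Figure D5:**
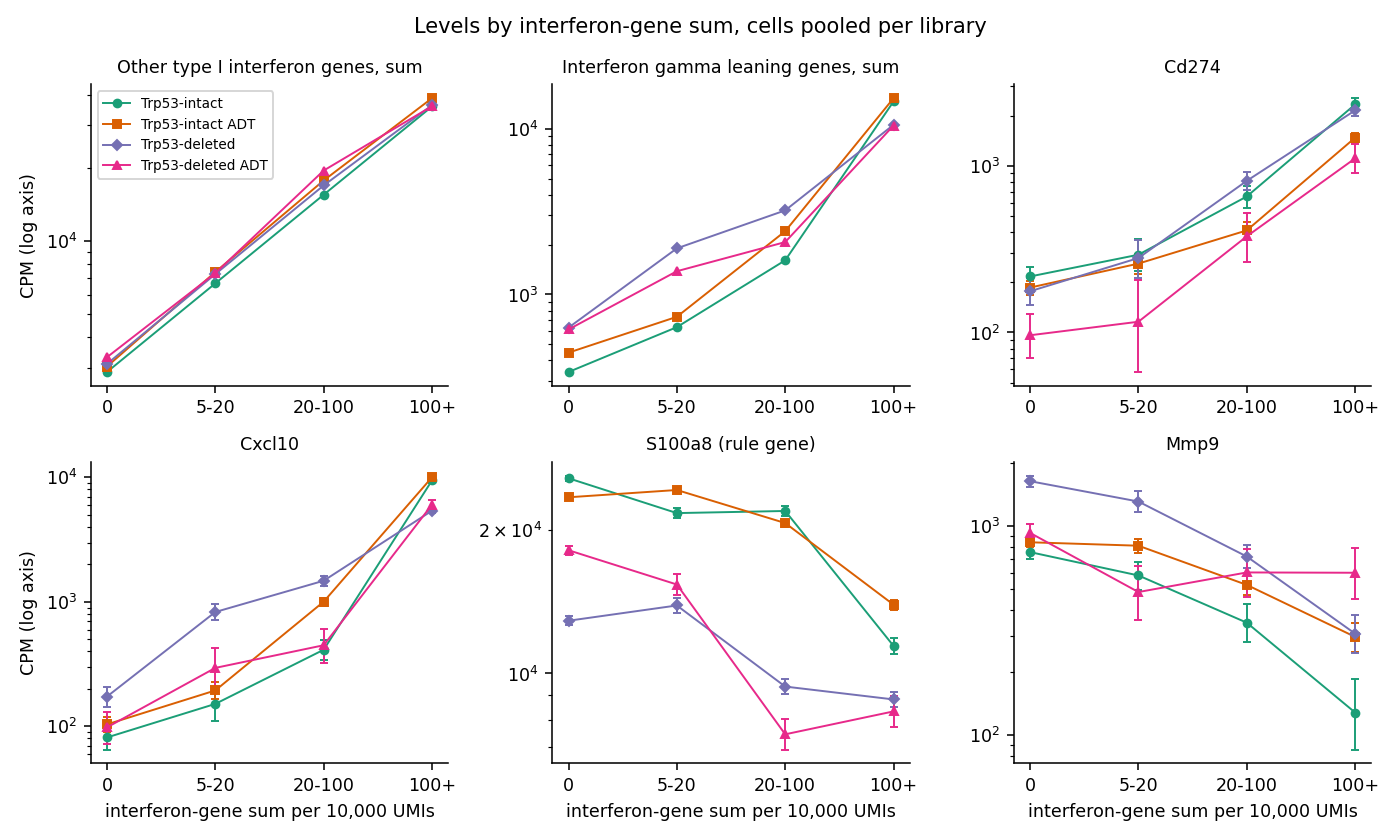
CPM on a log axis (y) of the other type I genes, the gamma leaning genes, Cd274, Cxcl10, S100a8 and Mmp9, by the interferon sum per 10000 UMIs (x axis: neutrophils at 0, and interferon-high cells at 5 to 20, 20 to 100 and 100 or more), with 1 line per library and 95% exact Poisson intervals for single genes. The type I sum steps up at each class in each library, while Cxcl10 rises most at 100 or more, to between 5407 and 10033 CPM.

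The interferon response of these cells was compared between groups by size only, as 1 library stands for each group. A gene counted as higher or lower when CPM plus 10 differed at least 2-fold, among genes with at least 20 UMIs over both libraries. With ADT in Trp53-intact mice, 2 of 51 measured type I genes were higher and 0 lower, beside 2.74% and 1.29% of 7106 genes, and their median log2 ratio was 0.16 against 0.16 over all genes. With ADT in Trp53-deleted mice, 1 of 46 was higher and 2 were lower, beside 4.24% and 8.04% of 4812 genes (medians -0.22 and -0.05). For Trp53-deleted against Trp53-intact, 2 of 47 were higher and 0 lower, beside 5.84% and 2.20% of 5581 genes (medians 0.29 and 0.17). For Trp53-deleted ADT against Trp53-intact ADT, 0 of 50 were higher and 1 was lower, beside 3.32% and 5.95% of 6686 genes (medians 0.03 and -0.06). The shares of type I genes were near the background in each comparison. The summed type I level was 17986.5, 19243, 21308 and 20544 CPM in library order. The cells of each library were cut at the same threshold on genes of the same response, so the rule sets part of this level.

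Cd274 differed between libraries as well, and it was not set against the spread of single type I genes. In interferon-high neutrophils it was lower with ADT in both genotypes, with a log2 ratio of -0.64 in Trp53-intact (ratio of CPM 0.637, 95% exact conditional interval 0.582 to 0.698) and -1.13 in Trp53-deleted mice (0.451, 0.376 to 0.537). Other neutrophils moved the same way, with log2 ratios of -0.30 and -0.90. Among the rule genes, which chose the cells, Rsad2 had log2 ratios of -0.35 and -0.50 with ADT in interferon-high neutrophils. Ifit3 had 0.35 and 0.47, Ifit1 0.14 and -0.055, and Isg15 0.16 and -0.33, so these genes did not all move alike.

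With ADT in Trp53-intact mice, the leading higher genes were also higher in the other neutrophils, while the leading lower genes were partly not lower there. Gdpd3, a lysophospholipase gene, was 190.2 CPM with ADT and 16.9 CPM without (log2 ratio 2.90), and 173 and 13.2 CPM in other neutrophils. The immediate early genes Egr3 (229 against 33.8 CPM) and Egr1 (3406 against 817 CPM) and the G protein regulator Rgs10 (167 against 39.0 CPM) were also higher in both. Ifnar1, the receptor subunit, was lower with ADT, at 80.9 against 301 CPM in interferon-high and 110.1 against 338 CPM in other neutrophils, and at 53.4 against 81.5 CPM over all kept cells. It was seen in 118 of 473 interferon-high neutrophils with ADT and in 115 of 219 without. The acute phase gene Saa3 (23.2 against 194 CPM), the granulocyte growth factor Csf3 (19.6 against 87.0 CPM), Cd79a and the lipase Lipg (18.0 against 75.3 CPM) were lower as well. In other neutrophils Saa3 was 41.7 against 43.9 CPM and Cd79a 37.0 against 1.39 CPM. Of the 149 Saa3 UMIs without ADT, 85 lay in 1 cell, and of the 67 Csf3 UMIs, 49 lay in 5 cells. Of the 43 Cd79a UMIs, a B cell gene, 24 lay in 1 cell.

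With ADT in Trp53-deleted mice, several leading genes rested on single cells of a group of 98 cells. The secreted phosphoprotein Spp1 was 2546 against 883 CPM, but 495 of its 716 UMIs lay in 1 cell. With high doublet scores left out, its log2 ratio turned from 1.52 to -0.23. The granzyme Gzmb had 0 UMIs with ADT and 131 without, of which 122 lay in 1 cell, and Stfa1 had 75 of 89 UMIs in 1 cell. The neutrophil attractant Prok2 had 0 UMIs against 81, of which 50 lay in 1 cell. Others were spread over cells. The metalloreductase Steap4 was 178 against 45.9 CPM and was seen in 24.5% against 9.09% of cells, and 90.5 against 54.5 CPM in other neutrophils. Eif4ebp1 (213 against 55.4 CPM) and Hist1h2bc (348 against 96.6 CPM) were higher too. Tagap was seen in 2 of 98 cells with ADT and 45 of 275 without, and Smad3 in 2 and 55 cells. AY036118, a transcript that shares sequence with ribosomal RNA, was 1177 against 114 CPM, and 1166 against 143 CPM in other neutrophils. Of 25 chemokines and cytokines measured, 3 were higher and 7 lower, beside 4.24% and 8.04% of all genes.

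Trp53-deleted differed from Trp53-intact in the same kind of genes. Egr3 (290 against 33.8 CPM), the adaptor Grap (68.3 against 5.195 CPM) and the vitamin C transporter Slc23a2 (127 against 16.9 CPM, in 62 of 275 against 10 of 219 cells) were higher, besides Gzmb and Stfa1. Lower were AY036118 (114 against 1661 CPM), Saa3, the chemokine Cxcl3 (69.5 against 448 CPM), the collagenase Mmp8 (14.1 against 104 CPM) and the matrix protein Thbs1 (777 against 2772 CPM). Cxcl3, Mmp8 and Thbs1 were lower in other neutrophils too, with log2 ratios of -3.23, -2.37 and -2.84. Of 6 MHC class II genes measured, 4 were lower, beside 2.20% of all genes, and H2-Aa was 181 against 391 CPM in interferon-high and 165 against 420.4 CPM in other neutrophils. In the Trp53-intact library a large part of these UMIs lay in single cells. There, 1 cell each held 100 of 301 H2-Aa UMIs, 125 of 302 H2-Eb1 UMIs and 215 of 517 Cd74 UMIs. H2-Aa was seen in 88 of 275 against 77 of 219 cells. Among gamma leaning genes, 5 of 17 were higher and 0 lower, beside 5.84% and 2.20% of all genes.

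With ADT in both, interferon-high neutrophils of Trp53-deleted mice were set against those of Trp53-intact mice. Those of the Trp53-deleted mice had more Lsmem1 (117 against 11.9 CPM), Steap4, Spp1 and Ankrd37. They also had more Wfdc17 (1504 against 457 CPM, in 59.2% against 34.7% of cells). They had less Gdpd3, with 1 UMI against 369, less Tagap and less of the coagulation factor F10 (39.1 against 193 CPM). Prok2 and Rprd1b gave 0 UMIs against 89 and 63. These UMIs came from class totals of 281248 in Trp53-deleted ADT and 1940475 in Trp53-intact ADT. Of the 89 Prok2 UMIs, 69 lay in 5 cells, and in other neutrophils Prok2 was 58.0 against 60.5 CPM. Spp1 had a log2 ratio of 1.69, which was -0.020 with high doublet scores left out.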

How the data were processed

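The authors deposited raw UMI counts per gene and cell barcode, with all 4 libraries in 1 matrix, and the library of a barcode was read from the submitters' suffix table. Per the submitters' processing notes the counts were made with Cell Ranger 2.1.1 on mm10, whereas the matrix header names software 3.1.0. The sources used here do not say how barcodes had been selected. UMIs were summed per library and class and divided by the class total (CPM). Sums of interferon-high and other neutrophils were tested with edgeR 4.0.16 (R 4.3.3; TMM, filterByExpr, library as block, robust quasi-likelihood test), leaving out the 11 rule genes. In simulated data for that contrast (6519 genes) 49.5% of genes changed by 1 on the log2 scale were recovered, 98.9% of those changed by 2, and 2.78% of calls were false. The simulation used a fixed dispersion and raised as many genes as it lowered, unlike the calls in the data. Its rates therefore hold for that setting only. Libraries hold 58088678 to 148030357 UMIs, and interferon-high sums 281248 to 1940475. Scrublet (scanpy 1.11.5) set no usable threshold, so doublets stayed in and the highest scores, 0.008 of a library per 1000 barcodes, were left out as an alternative. Thinning used seed 17. Genes between libraries used a pseudocount of 10 CPM. Named genes were the rule genes and markers, the 15 highest and 10 lowest genes called in the same direction in 4 libraries at 20 CPM or more, up to 4 highest and 2 lowest per list, and 5 each way between libraries with at least 50 UMIs. Cells and gene lists were chosen with earlier results of these data known. Gene positions and identifiers came from GENCODE M21, which held 30766 of 30905 identifiers. The genotype shared by all groups and some genes that the rule names are not reported here. Alternatives were other thresholds, depths, scalings, filters, DESeq2 1.42.0 and leaving out each library.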

Additional observations from a re-analysis of the deposited data

Results flagged for a closer look

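Among 34 named genes compared between libraries, the log2 ratio with ADT against none within interferon-high neutrophils had opposite signs in Trp53-intact and Trp53-deleted mice in 18. In 13 of them the counting interval of both ratios lay off no change. Apart from the markers, these genes had been named for large differences between the same libraries. The share of opposite signs over all measured genes was not computed, so the counts are not a result about these genes. The difference between genotypes was not tested, since each ratio compares 2 libraries. Isg15, a gene of the rule, had 0.16 in Trp53-intact and -0.33 in Trp53-deleted mice. Gdpd3 had 2.90 and -2.22, with 135 of 473 cells showing it in the Trp53-intact ADT library and 1 of 98 in Trp53-deleted ADT. Egr3 had 2.45 and -0.94, and Egr1 had 2.05 and -0.49. In the Trp53-intact library without ADT, Egr1 was seen in 67.1% of interferon-high neutrophils, and in 92.7% to 96.8% of them in the other 3 libraries. Stfa1 had 1.93 and -3.08, and 75 of its 89 UMIs in the Trp53-deleted library lay in 1 cell. AY036118 had -0.48 and 3.26, and it was at 1095 and 136 CPM over all kept cells of the Trp53-intact and Trp53-deleted libraries. Steap4 had -0.67 and 1.75. Slc23a2 had 1.28 and -1.71, and Wfdc17 had -0.99 and 1.35. Cxcl3 had -0.33 and 1.24, and Thbs1 had -0.21 and 0.79. F10 had 0.33 and -2.35. Rprd1b had 0.73 and -1.41, with 0 of 98 cells showing it in the Trp53-deleted ADT library.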

How the results depend on the processing

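The shares of interferon-high neutrophils moved with the stringency of the rule. With cells thinned to 1000 UMIs and 2 or more UMIs required they were 23.6%, 25.1%, 36.1% and 22.1% in library order, and at a threshold of 20 per 10000 they were 22.9%, 22.7%, 34.0% and 20.6%. With a neutrophil sum of 100 per 10000 the Trp53-deleted share was 41.9%. The Trp53-deleted library was highest and the Trp53-deleted ADT library lowest under each of these that gave 4 shares. Against other neutrophils, the number of genes that fell depended on the analysis more than the number that rose. It was 58 with DESeq2, 1287 without TMM scaling, 349 without the filter on low counts and 104 for cells with 2 or more UMIs against none, instead of 203. With 1 library left out, 554 to 619 genes rose and 48 to 202 fell, with 48 without Trp53-intact, 111 without Trp53-intact ADT, 202 without Trp53-deleted and 110 without Trp53-deleted ADT. With no replicate block, that is with the library term left out, 293 rose and 11 fell, all of them among the main calls. The cause of these changes was not tested. Mmp7 turned from -1.53 to 0.19 in cells of 1000 to 5000 UMIs, and Spp1 from 1.52 to -0.23 and from 1.69 to -0.020 with high doublet scores left out.

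Between libraries, a pseudocount of 2 CPM gave 631 higher and 196 lower genes for Trp53-intact ADT against Trp53-intact, 318 and 582 for Trp53-deleted ADT against Trp53-deleted, 581 and 202 for Trp53-deleted against Trp53-intact, and 421 and 853 for Trp53-deleted ADT against Trp53-intact ADT. With at least 50 UMIs, 53 were lower in the first, and 83 and 221, 193 and 68, and 111 and 241 were higher and lower in the others. A further scaling left out the 20 most abundant genes of interferon-high neutrophils in each library and all mitochondrial and ribosomal protein genes. With it, 145 were lower for Trp53-intact ADT against Trp53-intact and 207 for Trp53-deleted against Trp53-intact. The depth of 98 cells limits what the Trp53-deleted ADT library can show of genes with low counts.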
